A study of Mus musculus with 6 samples.

Results

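Single-nucleus RNA-seq counts were examined for 9 genes of striatal dopamine signalling, Drd1, Drd2, Drd3, Adora2a, Penk, Tac1, Pdyn, Ppp1r1b and Rgs9, chosen by name among the 32285 genes of the count table. The table joined nuclei from flash-frozen forebrains of 16-day-old (P16) mice, 3 WT and 3 Npc1-/-, with no treatment in either group. Npc1-/- mice lack the lysosomal cholesterol transporter NPC1 in every cell. The WT mice were littermates, so both groups were F1 hybrids of the BALB/cJ and C57BL6/J backgrounds. Barcodes ended in a suffix from 1 to 6, called library 1 to 6 here, and no key from suffix to mouse was used. WT and Npc1-/- were therefore not compared, and no library was taken as a replicate of a group.

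Most neurons of the striatum are striatal projection neurons (SPNs), which receive dopamine from the midbrain. Direct-pathway SPNs carry the D1 receptor, which is coupled to a stimulatory G protein, and make the peptides substance P and dynorphin. Indirect-pathway SPNs carry the inhibitory D2 receptor together with the stimulatory adenosine receptor Adora2a, and make enkephalin. Both use cAMP, protein kinase A and the phosphatase inhibitor DARPP-32 downstream of their receptors.

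After nuclei with 10% or more mitochondrial UMIs (unique molecular identifiers, each counting 1 captured RNA molecule) were left out, 75867 of 75878 barcodes remained. Libraries held 51343653 to 107583300 UMIs, with a median of 4469 to 5439 UMIs per nucleus. Of the 16-base barcodes, 631 occurred in more than 1 library. Nuclei were clustered without the 9 genes, and none of the markers used to name clusters was one of them, so that the genes did not define the classes in which they are described. SPN-like nuclei, named from genes such as Rarb, Actn2 and Adcy5, numbered 6177, or 7.52 to 9.09% of each library. The 28312 other neuronal nuclei were the comparison class, and 3473 microglia-like nuclei, which should lack these genes, gave the level below which no expression was read. What brought these UMIs into microglia-like nuclei, such as free RNA or droplets with more than 1 nucleus, was not tested. Microglia-like nuclei were not uniform. At clustering resolution 2.0 the largest such cluster was led by Inpp5d and Siglech and another, of 683 nuclei, by Mrc1 and F13a1. Levels are given as CPM, the gene's part of all UMIs of the class on the counts-per-million scale, with exact Poisson 95% intervals. The intervals hold the error of counting alone, so differences among mice lie outside them. A gene counted as higher in a class where the ratio of levels over all libraries together was at least 2-fold and its direction was the same in all 6 libraries.

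The RefSeq sequence before the RefSeq start (GRCm38.p6) is shown for a receptor and a peptide gene of the direct pathway, Drd1 and Tac1, and for the receptor of the indirect pathway, Drd2, all of which differed between the pathway classes described below. The RefSeq start of Drd2 lies before the start in the gene annotation used for coordinates below, so its stretch does not reach that start. RefSeq promoter entries were found for 6 of the 9 genes. Capitals mark 2 motifs that were searched on both strands. The first is the half-site of the cAMP response element, which reads TGACG on 1 strand and is marked where its complement is found on the other. The second is the GC box, which reads GGGCGG and is treated in the same way. The marked matches do not overlap in the stretches shown.
Drd1, 203 bases at chr13:54055706-54055908, minus strand: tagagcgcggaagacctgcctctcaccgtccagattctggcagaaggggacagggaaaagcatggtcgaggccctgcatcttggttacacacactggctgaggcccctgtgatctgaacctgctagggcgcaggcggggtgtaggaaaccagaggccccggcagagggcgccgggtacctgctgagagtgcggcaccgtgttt
Tac1, 68 bases at chr6:7554811-7554878, plus strand: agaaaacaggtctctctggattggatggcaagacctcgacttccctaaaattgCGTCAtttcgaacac
Drd2, 250 bases at chr9:49340153-49340402, plus strand: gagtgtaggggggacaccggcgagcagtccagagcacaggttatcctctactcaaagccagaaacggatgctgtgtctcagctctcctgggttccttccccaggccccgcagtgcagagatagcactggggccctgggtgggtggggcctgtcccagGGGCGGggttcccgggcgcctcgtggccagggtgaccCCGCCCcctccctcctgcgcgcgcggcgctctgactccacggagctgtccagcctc
Drd1 and Tac1 are shown only for the bases that lie outside the annotated gene, and the motifs were counted over the whole 250 bases before each RefSeq start. The Tac1 window held 2 half-sites, of which 1 is in the stretch shown, and 1 GC box, which is not. The Drd2 window held 2 GC boxes and no half-site. Drd1 had 2 RefSeq windows without a half-site, 1 of which held a GC box that is not in the stretch shown. Among 32851 such windows of all genes, 17.8% held the half-site and 32.7% the GC box, so that matches of these letters were common.

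All 9 genes were at least 2-fold higher in SPN-like than in other neuronal nuclei over all libraries together, and higher in 6 of 6 libraries. Over all genes, 814 of 18724 tested (4.35%) were higher by the same rule and 8.99% were lower. The median log2 ratio of the 9 genes was 2.71, against -0.03 for all tested genes. The lists were chosen with earlier results in view, so these counts describe the genes and are not a test of the choice.

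Among receptors, Drd2, the inhibitory dopamine receptor of the indirect pathway, differed most. Its level in SPN-like nuclei was 150 at the lowest, 160.1 at the median and 178 at the highest of the 6 libraries, against 4.52, 5.21 and 8.48 in other neuronal nuclei. The 2 ranges lay far apart, and the ratio over all nuclei was 26.7 (95% interval 25.3 to 28.2). Adora2a, the adenosine receptor of the indirect pathway, had a lowest, median and highest level of 43.9, 53.9 and 57.2 in SPN-like nuclei and of 1.83, 2.94 and 4.82 in other neuronal nuclei, a 16.9-fold ratio (15.6 to 18.3). Drd1, the stimulatory dopamine receptor, measured 32.5, 36.9 and 45.8 against 4.22, 5.99 and 7.14, a 6.498-fold ratio (6.07 to 6.96). For both genes every library's SPN-like value lay above every library's value in other neurons. Drd3, a receptor of the D2 type, measured 14.9, 22.3 and 29.99 against 2.61, 4.16 and 4.29, and its ratio of 5.80 (5.32 to 6.32) rested partly on a single cluster among the other neurons that is described below. Without that cluster the log2 ratio of Drd3 rose from 2.54 to 3.16.

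Among peptide precursors, Penk, which encodes proenkephalin, had levels of 56.7, 66.0 and 80.6 in SPN-like nuclei and 5.63, 10.8 and 14.1 in other neuronal nuclei, a 6.54-fold ratio (6.22 to 6.89). Tac1, the precursor of substance P, had 37.1, 39.8 and 46.7 against 5.57, 10.0 and 11.6, a 4.28-fold ratio (4.03 to 4.54). Pdyn, the dynorphin precursor, was sparse, with 376 UMIs in SPN-like nuclei. Its levels of 5.70, 7.41 and 10.9 lay above those of other neurons, which were 0.898, 1.58 and 2.44, and the ratio was 4.41 (3.84 to 5.06). The peptide ranges of the SPN-like and other neuronal nuclei did not overlap for any of the 3 genes. The share of all genes with ranges apart was not counted, so this, like the ranges of the receptors above, describes the genes only.

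Among effectors, Rgs9, a striatum-enriched regulator that shortens G protein signals, gave 32278 UMIs in SPN-like nuclei. It measured 628, 657 and 697 there and 23.5, 27.9 and 41.5 in other neurons, a 21.7-fold ratio (21.1 to 22.2). Rgs9 was detected in 90.3% of SPN-like nuclei and in 21.0% of other neuronal nuclei. Ppp1r1b, which encodes DARPP-32, measured 56.5, 81.2 and 93.4 against 4.86, 10.4 and 15.6, a 7.61-fold ratio (7.24 to 7.99). Ppp1r1b shares its locus with 1700003D09Rik on the opposite strand, which itself stood at 52.4 in SPN-like and 2.18 in other neuronal nuclei.

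**Figure D1:**
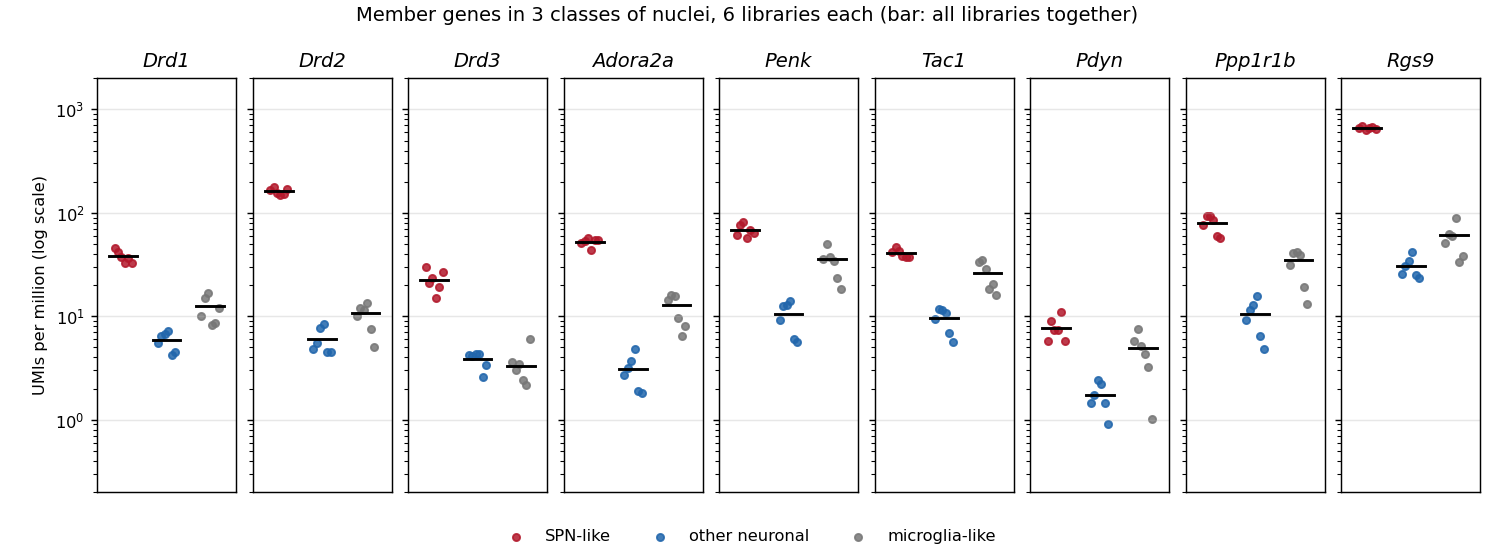
CPM (UMIs per total of the class, log axis) of each of the 9 genes in SPN-like (red), other neuronal (blue) and microglia-like (grey) nuclei, with 1 point per library and a bar for all libraries together. A further microglia-like cluster of 1095 nuclei is not drawn. The SPN-like points lie above the other neuronal points for every gene, from 4.28-fold for Tac1 to 26.7-fold for Drd2, while microglia-like points reach nearest to the SPN-like ones for Penk, Tac1 and Pdyn.

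Set against the microglia-like reference (clusters 8, 27 and 42), 6 of the 9 genes were still higher in SPN-like nuclei by the same rule. Of 14984 tested genes, 8.09% were higher by it and 28.1% were lower. Drd2 was 14.9-fold higher (12.4 to 18.2), Rgs9 10.9-fold, Drd3 6.78-fold, Adora2a 4.11-fold, Drd1 3.04-fold and Ppp1r1b 2.30-fold. The 3 peptide genes fell short of the fold against this reference, with ratios of 1.90 for Penk, 1.55 for Tac1 and 1.55 for Pdyn, the last higher in 5 of 6 libraries. Nuclei of the reference were shallower, with a median of 2392 UMIs against 6700 in SPN-like nuclei, and had 35.9 CPM of Penk and 26.4 of Tac1. Cluster 18, with 1095 further microglia-like nuclei that were deeper (median 8894 UMIs), was kept out of this reference after the data were seen. Rgs9 had a UMI in 38.4% of its nuclei, against 11.1 to 21.3% in the clusters of the reference. At resolution 2.0 a deep microglia-like cluster (944 nuclei, median 9767 UMIs) scored 0.73 for neuronal genes, against -0.59 in the largest. Whether neuronal material lay in cluster 18 was not tested. Cluster 18 had higher levels than the reference for Drd2 (29.7), Drd3 (11.53) and Rgs9 (129) and lower ones for the other 6 genes, among them Penk (18.1) and Drd1 (10.9). These calls turned with the reference, in alternatives chosen after seeing the data. Against cluster 18 alone, 8 of the 9 genes were higher by the same rule, where 3.31% of 14691 genes were. The peptide genes were among them, with ratios of 3.76 (3.28 to 4.32) for Penk, 3.24 for Tac1 and 3.98 for Pdyn. Drd3 then fell short, at 1.95 (1.63 to 2.33). Against all microglia-like clusters together all 9 passed, where 4.04% of 15526 genes did, from 2.17 for Tac1 to 7.63 for Drd2. A cluster of 7811 nuclei led by mitochondrial genes, which was left unnamed, had 52.3 of Penk, 38.0 of Tac1 and 49.0 of Ppp1r1b. The peptide levels of other neurons were thus below those of microglia-like nuclei, and no expression outside SPN-like nuclei was read from values under the microglia-like level. The microglia-like level also differed between libraries, Penk being 23.6 and 18.2 in libraries 5 and 6 but 34.0 to 50.3 in the other 4.

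The 9 genes lie on 8 chromosomes (GRCm38). The receptor genes are Drd1 at chr13:54051183-54055705, Drd2 at chr9:49340627-49408177, Drd3 at chr16:43754026-43822932 and Adora2a at chr10:75316877-75334784. The peptide genes are Penk at chr4:4133531-4138819, Tac1 at chr6:7554879-7565834 and Pdyn at chr2:129686565-129699844. The effector genes Ppp1r1b at chr11:98348404-98357796 and Rgs9 at chr11:109225355-109298129 share a chromosome. No order by gene length was read from the ratios above, since the ratios of the 3 genes of 67.6 to 72.8 kb were all above those of the 6 shorter genes against the reference but not against cluster 18 or all microglia-like clusters.

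SPN-like nuclei were clustered again, still without the 9 genes, into 12 subclusters. Subcluster 0 (1418 nuclei, led by Ebf1 and Zfp521) was named direct-pathway-like and subcluster 2 (923 nuclei, led by Oprd1 and Nell1) indirect-pathway-like from markers that held none of the 9 genes. Subclusters 4, 6 and 9, led by genes of other classes (876 nuclei), and subcluster 3, led by mitochondrial genes (712 nuclei), were left out where stated, which left 4589 SPN-like nuclei. Of subcluster 3, 301 nuclei were from library 3 and 5 and 3 from libraries 5 and 6.

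Between direct-like and indirect-like nuclei 3 of the 8 genes tested were higher in direct-like nuclei (Drd1, Tac1, Pdyn) and 3 were lower (Drd2, Adora2a, Penk), with the same direction in 6 of 6 libraries. Among all 10678 genes tested, 0.777% were higher and 0.478% lower, or 1.25% in either direction. Drd3 had 88 UMIs in both classes together, fewer than the 100 required, and was not tested.

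Drd1 in direct-like nuclei stood at 92.2, 80.6, 75.4, 61.4, 70.5 and 73.0 CPM in libraries 1 to 6. In indirect-like nuclei Drd1 stood at 10.4, 13.7, 13.2, 5.39, 4.58 and 2.52. Every direct-like value was above every indirect-like value, and the ratio was 8.54 (6.57 to 11.3). The indirect-like level of Drd1, 8.85 over all nuclei, was below the 12.6 of microglia-like nuclei.

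Drd2 in indirect-like nuclei measured 495, 563, 433, 455, 471 and 511 in libraries 1 to 6. In direct-like nuclei Drd2 measured 13.4, 20.3, 14.7, 27.3, 3.71 and 2.26. Library 4 was the highest and libraries 5 and 6 the lowest in direct-like nuclei, but no direct-like value came near the indirect-like range. Drd2 was 33.3-fold higher in indirect-like nuclei (28.5 to 39.2). In microglia-like nuclei Drd2 was 10.1, 12.1, 11.4, 13.4, 7.51 and 5.05 in libraries 1 to 6, so that library 4 was highest and libraries 5 and 6 lowest there too.

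Adora2a followed Drd2. Its levels in indirect-like nuclei were 149, 126, 154, 127, 152 and 166, and in direct-like nuclei 6.18, 11.4, 15.3, 11.03, 2.12 and 3.01. The 2 classes did not overlap, and the level was 17.1-fold higher in indirect-like nuclei (13.9 to 21.4). The direct-like level of 8.43 over all nuclei was below the 12.8 of microglia-like nuclei.

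Penk, the peptide of the indirect pathway, had 179, 203, 209, 168, 237 and 247 CPM in indirect-like nuclei. In direct-like nuclei Penk had 20.1, 17.6, 26.3, 20.6, 9.01 and 9.79. Libraries 5 and 6 were highest in the indirect-like class and lowest in the direct-like class, and the ratio was 11.7 (10.1 to 13.7). The direct-like level of Penk, 17.5 over all nuclei, was below the 35.9 of the microglia-like reference. A830012C17Rik, which lies opposite Penk on the other strand, had 14.3 in indirect-like and 1.61 in direct-like nuclei.

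Tac1, the substance P precursor, had 50.5, 59.9, 44.7, 48.0, 49.8 and 40.7 in direct-like nuclei and 12.002, 14.5, 22.5, 17.98, 8.24 and 8.81 in indirect-like nuclei. The classes did not overlap, and the ratio was 3.44 (2.77 to 4.31). The indirect-like level of Tac1, 14.5 over all nuclei, was below the 26.4 of the microglia-like reference. Since the indirect-like level of Drd1 was below its reference too, the sizes of the 2 ratios were not compared. Pdyn had 6.69, 10.1, 6.74, 8.15, 19.6 and 10.5 in direct-like nuclei and 0.800, 2.42, 2.33, 4.49, 0 and 1.26 in indirect-like nuclei. Pdyn did not overlap either, but rested on 115 and 13 UMIs, and its ratio of 5.38 had a wide interval (3.02 to 10.4). Its indirect-like level of 1.92 over all nuclei was below the 4.97 of the microglia-like reference. Library 5 held the highest direct-like value of Pdyn and no UMI of it in indirect-like nuclei, where 3 UMIs would have given 2.75 CPM.

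The effectors shared by both pathways differed little. Ppp1r1b was 97.8 in direct-like and 96.7 in indirect-like nuclei, a ratio of 1.01 (0.92 to 1.12), with 2 libraries higher and 4 lower. Rgs9 was 888 and 929, a ratio of 0.956 (0.926 to 0.986), and was lower in direct-like nuclei in 6 of 6 libraries, the highest direct-like value being 913 and the lowest indirect-like value 919. Drd3 stood at 6.01 and 3.10, a ratio of 1.94 (1.17 to 3.34) that was above 1 in 6 of 6 libraries, beside 3.31 in microglia-like nuclei.

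**Figure D2:**
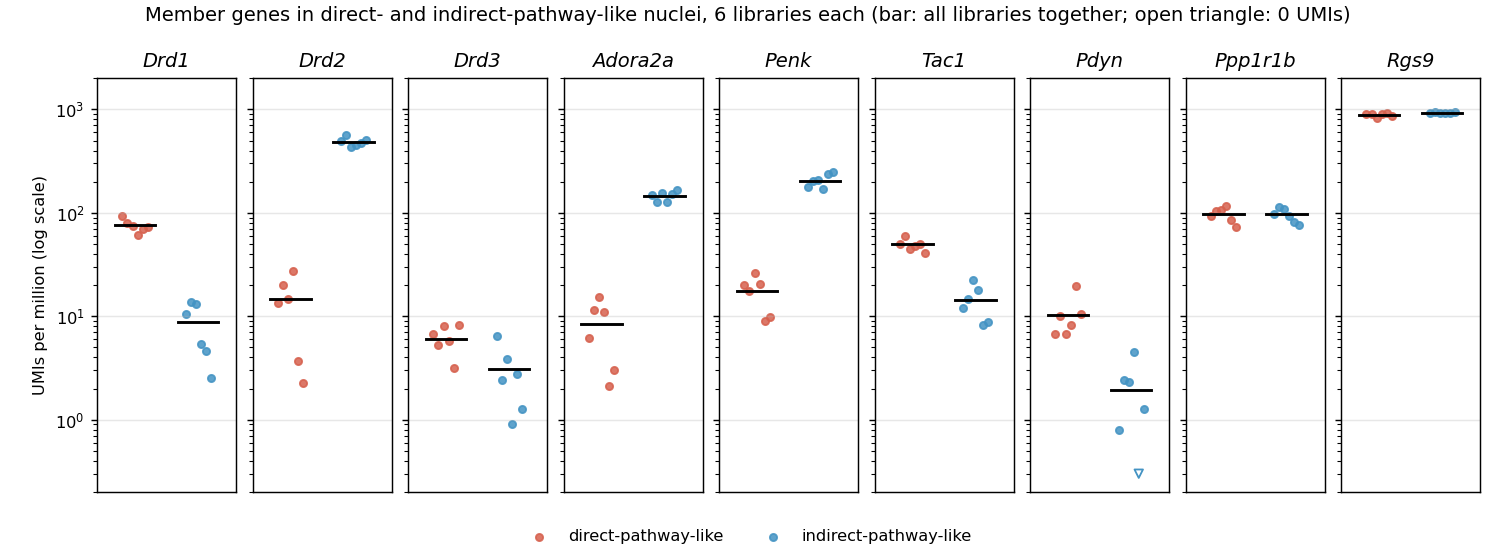
CPM (log axis) of the 9 genes in direct-like (red) and indirect-like (blue) nuclei, with 1 point per library, a bar for all libraries together and an open triangle for a library with 0 UMIs. Drd1, Tac1 and Pdyn are higher in direct-like nuclei and Drd2, Adora2a and Penk in indirect-like nuclei, while Ppp1r1b overlaps and the Rgs9 bars lie at 888 and 929.

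Shares of nuclei with a UMI depend on depth, so each nucleus was also thinned to 3000 UMIs. Drd2 was then detected in 73.4% of indirect-like nuclei (89.5% before thinning), 2.76% of direct-like nuclei and 3.25% of microglia-like nuclei. Drd1 was detected in 19.9% of direct-like nuclei (41.8% before thinning), 1.01% of indirect-like nuclei and 3.64% of microglia-like nuclei. Most direct-like nuclei thus gave no Drd1 UMI at this depth, and the absence of a Drd1 UMI did not mark a nucleus as lacking the gene. Adora2a was detected in 35.2% and Penk in 40.7% of indirect-like nuclei, against 1.45% and 5.45% of direct-like nuclei. Tac1 was detected in 13.9% of direct-like and 4.25% of indirect-like nuclei, the latter below the 6.20% of microglia-like nuclei. Rgs9 was detected in 89.5% of direct-like and 91.7% of indirect-like nuclei, against 15.7% of microglia-like nuclei. Thinning left out 43 of 1418 direct-like, 29 of 923 indirect-like and 2457 of 3473 microglia-like nuclei that were shallower.

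The other genes of the pathway, from lists of receptors, G proteins, cyclases, phosphodiesterases, kinases, dopamine metabolism and peptide processing, are given by count. Of 45 genes, 42 could be tested between SPN-like and other neurons, and 15 were higher and 1 was lower, where 4.35% of all genes tested were higher and 8.99% lower. The clusters themselves were made with these genes, and Gng7, Adcy5, Pde10a and Pde1b were also among the markers that named the class, so the values describe the class. All 4 enzymes of cAMP synthesis and breakdown were higher: Adcy5, the main striatal adenylyl cyclase, was 11.7-fold higher, and the phosphodiesterases Pde1b, Pde7b and Pde10a were 8.28-fold, 7.56-fold and 3.74-fold higher. Of 7 G protein genes and regulators 4 were higher, led by Gng7 at 12.7-fold, with Gnal, the stimulatory G protein subunit that couples the receptors of Drd1 and Adora2a to cyclase, at 6.14-fold, Rgs20 at 5.40-fold and Gnb5, the partner of Rgs9, at 2.53-fold. Of 11 receptors tested 5 were higher, among them Gpr52 (4.75-fold), Gpr6 (4.64-fold), the kappa opioid receptor Oprk1 (3.61-fold), which binds dynorphin, and the cannabinoid receptor Cnr1 (2.60-fold). Prkar2b (2.38-fold) and Ppp1cc (2.16-fold) were the 2 of 9 kinase and phosphatase genes that were higher. None of the 6 genes of dopamine synthesis, storage and uptake passed 2-fold, and Th, the rate-limiting enzyme of dopamine synthesis, stood at 0.717 and 0.805 (a gene named after its values were seen). Pcsk1, a protease that cuts peptide precursors, was lower, at 15.3 against 37.2.

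Between direct-like and indirect-like nuclei none of 35 tested pathway genes was higher and 2 were lower. With 0.777% of all genes higher and 0.478% lower, a count of 0 among 35 does not set the lists apart. Oprd1, the delta opioid receptor that binds enkephalin, stood at 3.50 in direct-like and 84.3 in indirect-like nuclei, a 24.1-fold difference in the direction of Penk. Oprd1 was not left out of the clustering and was the first leading gene of the indirect-like subcluster, so its values describe the class. Gpr6 stood at 1.53 and 14.3, a 9.38-fold difference, and was a naming marker of the indirect-like class. The 33 others, among them the cyclase, the 3 phosphodiesterases and the 9 kinase and phosphatase genes, did not pass 2-fold with the same direction in 6 libraries.

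Detection of 2 genes in the same nucleus was examined over the 4418 of 4589 SPN-like nuclei that reached 3000 UMIs after thinning. Of 36 pairs, 8 had an odds ratio of joint detection above 1 with its 95% interval, 13 had one below 1, and for 15 the interval held 1. The sign was the same in all 6 libraries for 6 pairs above and 12 below. Pairs of other genes were not examined at this depth, so these counts describe the pairs and do not set the genes apart.

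Drd1 and Drd2 were the pair detected together least. Drd2 was found in 5.31% (3.46 to 7.74%) of nuclei with Drd1 and in 31.7% (30.2 to 33.2%) of nuclei without Drd1, a log2 odds ratio of -3.05 (-3.70 to -2.46). Nuclei with both numbered 4, 6, 5, 5, 5 and 0 in libraries 1 to 6, or 25 in all. By library, 0 to 7.14% of Drd1 nuclei also had Drd2. The 5.31% compares with the 3.25% of microglia-like nuclei that had a Drd2 UMI. Within direct-like nuclei alone, Drd2 was found in 3.66% of nuclei with Drd1 and 2.54% of nuclei without (log2 odds ratio 0.54, -0.68 to 1.65), and within indirect-like nuclei in 6 of 9 nuclei with Drd1 and 73.4% of the others (-0.47, -2.71 to 2.17). Both intervals held 0, so that the separation over all SPN-like nuclei was not detectable inside either class. It was seen inside the subclusters that were not divided by receptor, since before thinning Drd2 was found in 9.46% of Drd1 nuclei of subcluster 1 and 29.9% of its others, and in 18.3% and 60.8% in subcluster 5.

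Before thinning, 904 of the 4589 nuclei (19.7%) had Drd1 only, 1594 (34.7%) Drd2 only, 122 (2.66%, 2.21 to 3.17%) both and 1969 (42.9%) neither. Nuclei with Drd1 only had 60.9 CPM of Tac1 and 13.1 of Penk, whereas nuclei with Drd2 only had 17.0 of Tac1, 149 of Penk and 130 of Adora2a. Nuclei with both genes had 53.8 of Tac1, 103 of Penk and 77.8 of Adora2a, values between the other 2 groups, and were the deepest, with a median of 9874 UMIs against 7779.5 and 6844. The part of depth and of droplets with more than 1 nucleus in these 122 nuclei was not tested. Rgs9 was 808 with Drd1 only, 799 with Drd2 only and 769 with both.

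Genes of the indirect pathway were detected together. Adora2a was found in 33.1% of nuclei with Drd2 and 7.13% of nuclei without, a log2 odds ratio of 2.69 (2.42 to 2.95), and the 6 libraries ranged from 1.98 to 3.24. Within indirect-like nuclei alone the pair gave -0.04 (-0.50 to 0.43), an interval that held 0, while the 38 direct-like nuclei with Drd2 held 3 with Adora2a (2.74, 0.25 to 4.62). Penk was found in 33.0% and 10.1% (2.13, 1.89 to 2.37), and Penk with Adora2a gave 1.56 (1.28 to 1.84). Genes of the direct pathway were less clearly paired. Tac1 was found in 17.8% of nuclei with Drd1 and 10.9% of nuclei without (0.83, 0.44 to 1.20), above 0 in 6 of 6 libraries but with an interval that held 0 in libraries 3, 4 and 6. Drd1 with Pdyn gave 0.57 (-0.28 to 1.34) and Tac1 with Pdyn 0.32 (-0.56 to 1.10), so that with 114 Pdyn nuclei no pairing was detectable at this depth.

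Across the pathways pairs were less frequent. Drd1 with Adora2a gave a log2 odds ratio of -2.34 and Drd1 with Penk -1.86, while Drd2 with Pdyn gave -2.12 and Drd2 with Tac1 -1.56. Penk with Tac1, the peptides of the 2 pathways, gave -0.86 (-1.31 to -0.43). Each of these was below 0 in 6 of 6 libraries. In other neuronal nuclei, Drd1 with Drd2 gave 0.27 (-0.81 to 1.17) at the same depth, an interval that held 0.

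**Figure D3:**
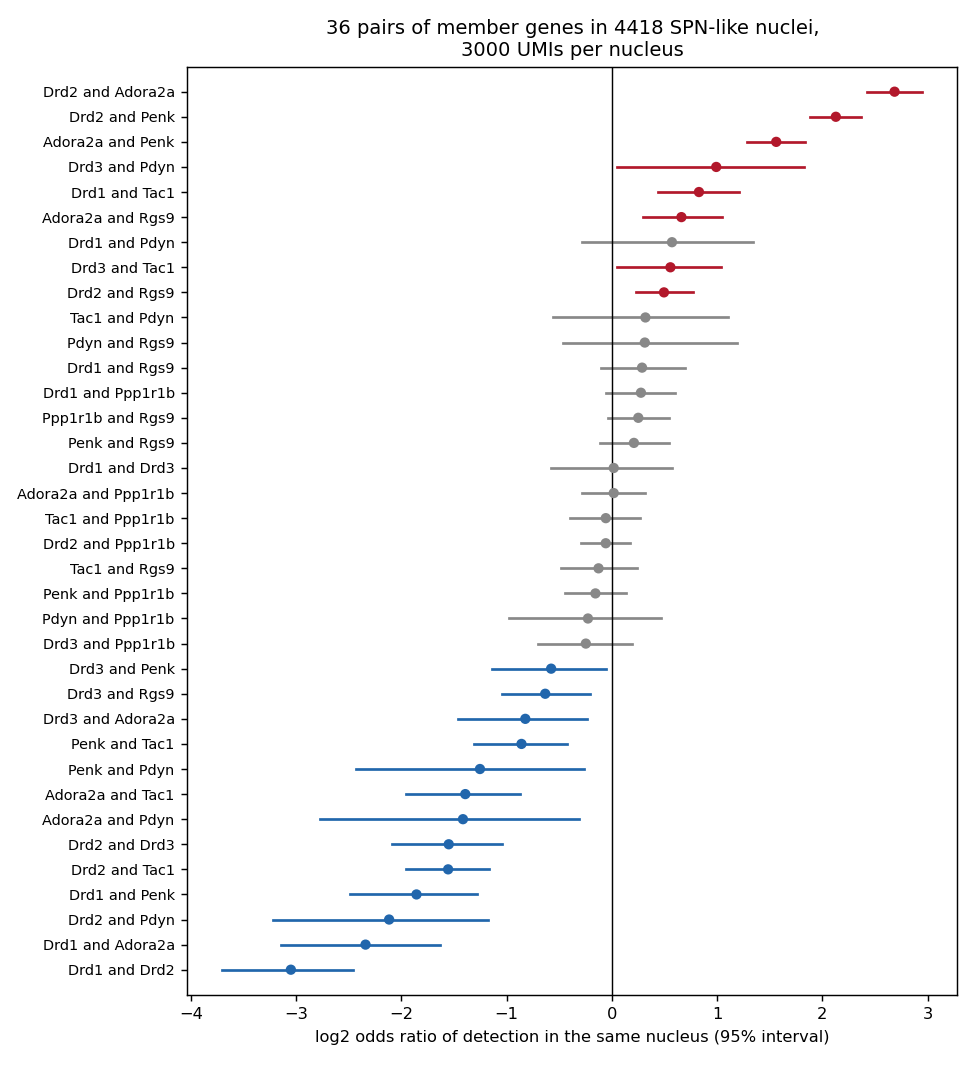
Log2 odds ratio of detection in the same nucleus (points, with lines for exact 95% intervals) for the 36 gene pairs in 4418 SPN-like nuclei at 3000 UMIs each, in red where the interval lies above 0, blue where it lies below and grey where it holds 0. Drd2 with Adora2a lies at 2.69 and Drd1 with Drd2 at -3.05, and 15 pairs are grey.

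Drd3 was detected less often in SPN-like nuclei with a gene of the indirect pathway. Drd3 was found in 2.98% of nuclei with Drd2 and 8.24% of nuclei without (log2 odds ratio -1.55, -2.09 to -1.04). Drd3 with Adora2a gave -0.82 (-1.46 to -0.23) and with Penk -0.58 (-1.14 to -0.05). Each of these was below 0 in 6 of 6 libraries. Drd3 with Drd1 gave 0.02 (-0.58 to 0.57). With the direct-pathway peptides, Drd3 gave 0.99 (0.05 to 1.83) for Pdyn and 0.56 (0.05 to 1.03) for Tac1. The Pdyn pair was above 0 in 5 of 6 libraries, the Tac1 pair in 3 of 6. In 2 subclusters named eccentric-like, from markers such as Otof and Casz1 for a minor kind of SPN, Drd3 stood at 82.1 (subcluster 8, 192 nuclei) and 154 (subcluster 10, 135 nuclei). Otof was also among the leading genes of unnamed subclusters 7 and 11, and Casz1 among those of unnamed subcluster 5. By library subcluster 10 had 188, 221, 88.7, 104, 133 and 146 CPM of Drd3, and every value was above every direct-like and indirect-like value. Subcluster 10 had a single Drd2 UMI and 43.9 CPM of Drd1, and 18 of its 27 nuclei with Drd1 also had Drd3, against 64 of all its 135 nuclei (47.4%). Subcluster 8 had the highest Tac1 level of the 12, 94.0 (78.3 to 112), with Drd1 at 54.5.

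Drd3 was not limited to subclusters with Drd1. Subcluster 7 (214 nuclei, led by Nrp2 and Vwc2l, and left unnamed) had Drd2 at 428 and Drd3 at 68.7, with Drd1 at 4.41. Of its 72 nuclei with Drd3, 59 also had Drd2, beside 187 (87.4%) of all its nuclei, so that the 2 genes were present together but not paired beyond the Drd2 share, and in libraries 1 to 6 its Drd3 level was 68.3, 58.3, 126, 97.0, 49.0 and 46.6. Adora2a (142) and Penk (129) were also high in subcluster 7, whereas Tac1 (8.19) and Pdyn (1 UMI) were not. Here 2 receptors of the D2 type were thus detected in the same nuclei, at Drd3 levels that lay above the 6.01 and 3.10 of the direct-like and indirect-like subclusters in every library.

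Subcluster 1 (1124 nuclei, led by Ntn1 and Gfra1, and left unnamed) held nuclei of both kinds. It had 201 nuclei with Drd1 only, 270 with Drd2 only and 21 with both, as well as Drd3 at 57.3 and the highest Pdyn level of the 12 subclusters, 14.5 (11.9 to 17.4). In subcluster 1, Adora2a was found in 50.2% of the nuclei with Drd2, against 17.97% of all its nuclei. Subcluster 5 (459 nuclei, led by Alk, and left unnamed) had 58 with Drd1 only, 236 with Drd2 only and 13 with both. Its Tac1 level was 70.0, and Tac1 was found in 32.7% of all its nuclei (150 of 459), in 60.6% of those with Drd1 and in 51 of the 249 with Drd2, while Drd3 was at 8.68. The clustering used here thus did not divide these 1583 nuclei by dopamine receptor. With the 9 genes allowed, subclusters led by Ntn1 and Gfra1 (1013 nuclei) and by Alk (481 nuclei) still formed. At the higher second Leiden resolution, leading genes of subcluster 1 were spread over several subclusters. Whether the resolution or leaving out the 9 genes accounted for the lack of division was not tested. Subcluster 11 (124 nuclei, led by Calcrl and Cpne7) had Adora2a at 107, Penk at 117 and Drd2 at 168.8, with 3 UMIs of Drd3, and the lowest Rgs9 of the 12 subclusters, 233 (202 to 267).

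**Figure D4:**
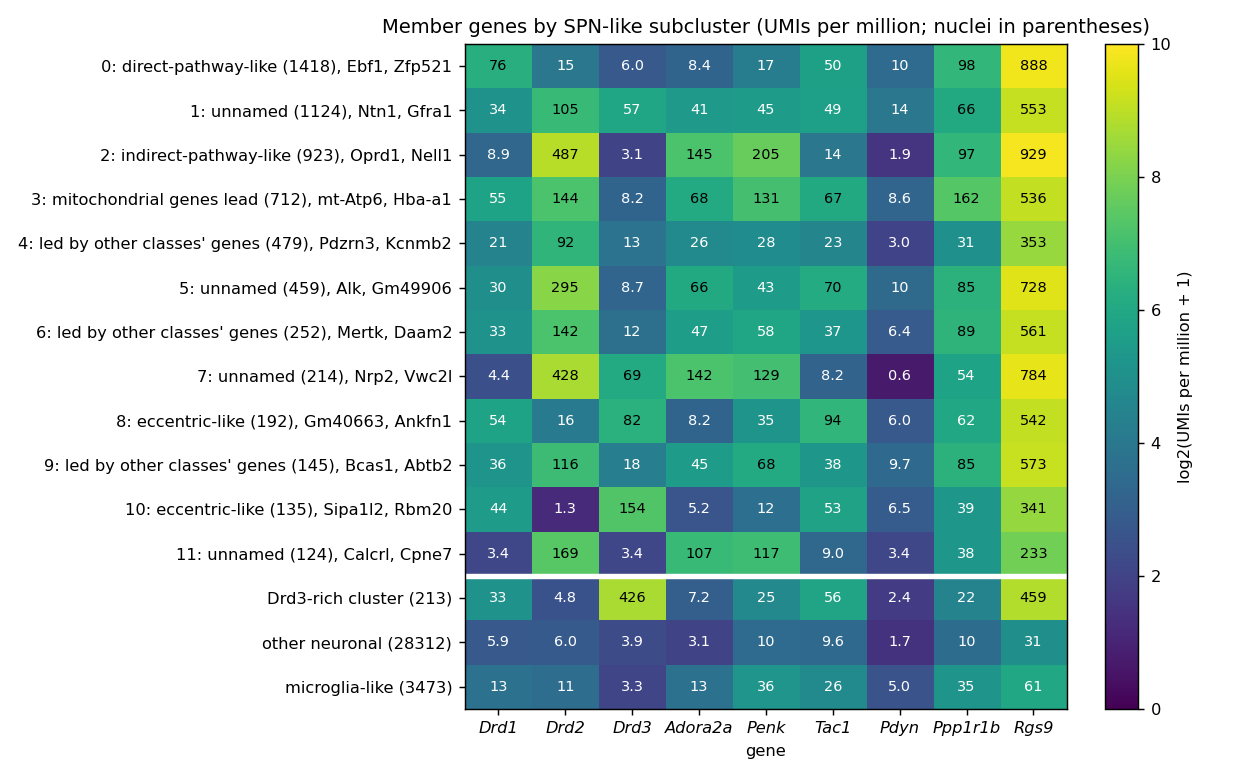
CPM of the 9 genes (numbers) in the 12 SPN-like subclusters and, under the white line, in cluster 41 (labelled Drd3-rich), all other neuronal nuclei and microglia-like nuclei, coloured by log2(CPM + 1) from dark (low) to bright (high), with nuclei in parentheses. Drd2 and Adora2a are brightest in subclusters 2 and 7, Drd3 is highest in cluster 41 at 426 CPM, and Rgs9 is bright in every SPN-like row.

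The highest Drd3 level of all clusters lay outside the SPN-like nuclei. Cluster 41 held 213 neuronal nuclei (25 to 53 per library), was led by Gpr149, Stac, Isl1 and Htr4, and was left unnamed. Drd3 there was 545, 484, 378, 276, 551 and 338 CPM in libraries 1 to 6 and was detected in 67.6% of nuclei. These values were all above those of every SPN-like subcluster, and the level was 170-fold that of other neurons (149 to 193), in 6 of 6 libraries. Rgs9 (459, 15.7-fold), Tac1 (56.1, 5.95-fold) and Penk (25.1, 2.42-fold) also counted as higher, as did 3.71% of 18267 genes tested. All 3 were higher in 6 of 6 libraries, but Penk was 1.47-fold higher in its lowest library, with a median library ratio of 1.83. The cluster was singled out for its Drd3 level after the values were seen, so that its Drd3 values are a description and nothing is read from the number of the 9 genes that were higher. Penk in cluster 41 was below the 35.9 of the microglia-like reference and above the 18.1 of cluster 18. Drd1 was 33.5 (22.2 to 48.3), with no UMI in library 6, where 3 UMIs would have given 29.0, and it was not called. Drd2 gave 4 UMIs.

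In other neurons the receptors stood at low levels. Drd1 was 19.5 (14.7 to 25.4; 12.6 to 25.7 by library) in cluster 39, led by Ntng2 and Nr4a2, the highest of the named cortical clusters. This overlapped the 17.5 (15.6 to 19.5; 11.4 to 25.5 by library) of the mitochondrial-led cluster. Drd1 was 10.2 (8.89 to 11.6) in layer 6 corticothalamic-like cluster 10 and 10.2 (7.15 to 14.0) in layer 5-like cluster 35. The level of cluster 10 ranged from 7.80 to 12.1 by library and overlapped the 8.14 to 16.6 of microglia-like nuclei, although cluster 10 was deeper. Drd2 was 15.4 (14.2 to 16.6) in cluster 4, 5432 nuclei led by Baiap3, above the 10.8 of the microglia-like reference but below the 29.7 of cluster 18 and near the 13.98 (9.08 to 21.4 by library) of the mitochondrial-led cluster, whereas the 9.08 (7.66 to 10.7) of thalamic-like cluster 17 was above none of them. Drd3 was 7.74 (6.94 to 8.61) in cluster 4 and 6.07 (4.92 to 7.41) in cluster 17, against 3.31 in the reference and 11.53 in cluster 18, so that no expression was read from these clusters. Tac1 was 15.1 (13.6 to 16.8) and Pdyn 3.57 (2.83 to 4.44) in medial-origin interneuron-like cluster 11, both below the reference but above cluster 18, which had 12.7 and 1.93, so that no expression was read from them. A cluster of 405 nuclei (cluster 36) with raised Penk, Ppp1r1b and Drd2 held 86.7% of its nuclei from library 4 and was not read as a neuronal type.

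Among non-neuronal classes, Adora2a was above the microglia-like level in vascular clusters and Ppp1r1b in choroid plexus-like nuclei, whereas the largest astrocyte-like cluster lay below the reference, with 9.69 CPM of Adora2a and 29.6 of Ppp1r1b (10.6 and 22.3 in cluster 18). Adora2a was 33.9 (30.1 to 38.1) and 36.6 (29.8 to 44.5) in 2 pericyte-like clusters and 19.98 and 22.7 in 2 endothelial-like clusters, against 12.8 in microglia-like nuclei. The smaller endothelial-like cluster (635 nuclei) also had 159 CPM of Rgs9, 42.1 of Ppp1r1b and 32.1 of Drd2, all above the microglia-like reference. Their lowest library values were 43.1, 21.6 and 0, and Drd2 reached 50.5. Cluster 18 had 129, 22.3 and 29.7 of these genes, and its Drd2 interval (26.8 to 32.9) overlapped the 27.6 to 37.0 here. The larger endothelial-like cluster had 47.2 of Rgs9, 26.1 of Ppp1r1b and 9.65 of Drd2. The part of SPN material in the smaller cluster was not tested. Ppp1r1b was 61.0 (51.5 to 71.8) in choroid plexus-like cluster 37, against 34.8. Drd3 was 11.6 (9.44 to 14.2) in neuroblast-like cluster 14, of which library 3 held 44.3%, and its lowest library stood at 7.18, but cluster 18 was at 11.53 (9.72 to 13.6), so that no expression was read from it.

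Genes whose level followed that of each member most closely were named from Pearson correlations of log2(CPM + 1) over 25 neuronal clusters and subclusters, among 16819 genes. The points share libraries and SPN-like subclusters make up much of the range, so the values describe likeness only. For Drd2 the nearest gene was Adora2a (0.95), then Penk (0.92) and Upb1 (0.92). For Adora2a it was Penk (0.96), and for Penk it was Adora2a, followed by Nt5e (0.93), which encodes an enzyme that makes extracellular adenosine. Drd1 was nearest to Gm48550 (0.91), Tac1 (0.89) and Mdk (0.87), Tac1 to Mdk (0.92), Drd1 and Cep63 (0.86), and Pdyn to Tac1 (0.85), Mdk (0.79) and Slc35d3 (0.79). Drd3 was nearest to Gpr149 (0.94), Arglu1 (0.90) and Shprh (0.87). Ppp1r1b was nearest to Gm31251, Mhrt and Arel1 (0.94 each), and Rgs9 to Mhrt, Gnal and Adcy5 (0.96 each). Drd1 and Drd2 themselves correlated at 0.16, while Ppp1r1b and Rgs9 correlated at 0.93.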

How the data were processed

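Nuclei were profiled with 10x Chromium 3′ chemistry. The deposited matrix holds raw UMI counts per gene and barcode for 6 joined libraries, with no normalization by the authors. The file header names Cell Ranger 6.0.0, whereas the submitters' processing notes name Cell Ranger 2.1.1 and mm10 and the study's methods STARsolo, so which of them made these counts is not settled. Barcode suffixes could not be tied to mice, so groups were not compared and no library was checked against its genotype. The 9 genes and the lists were chosen with earlier results of these data known, and naming limits and the second clustering resolution after the data were seen.

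Barcodes with at least 10% mitochondrial UMIs were removed. Counts were scaled to 10000 per nucleus, and 3000 variable genes without the 9 genes, 30 principal components, 20 neighbours and Leiden clustering at resolution 1.0 were used (scanpy 1.11.5, leidenalg 0.10.2, igraph 0.11.9, Python 3.11.15), then resolution 0.5 within SPN-like clusters. A class name required 3 markers at 2-fold (1.5-fold within SPN-like nuclei). A microglia-like cluster of 1095 nuclei with a median of 8894 UMIs was kept out of the microglia-like reference and was used alone or with it as an alternative. Doublets were scored against simulated pairs and treated as an alternative. UMIs were summed per class and library. Ratios have exact binomial intervals, shares exact Clopper-Pearson intervals and odds ratios exact conditional intervals, all at 95% and for counting error only. Genes needed 100 UMIs in both classes together to be tested. Named genes were the 9 members, pathway genes past 2-fold with the same direction in every library, and the 3 genes nearest to each member among those with at least 200 UMIs. Calculations were tested on simulated data. Alternatives were clustering with the 9 genes or at resolution 0.5 or 2.0, at least 1000 genes per nucleus, removal of the highest 10% of doublet scores, TMM scaling (edgeR 4.0.16), a minimum of 20 UMIs, thinning to 3000 UMIs, 2 UMIs for detection and leave-one-out of each library. Sequences and motif counts came from RefSeq on GRCm38.p6, gene coordinates from the GRCm38 annotation. The values of 1 pathway gene are not reported here.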

Additional observations from a re-analysis of the deposited data

How the results depend on the processing

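The 9 genes were at least 2-fold higher in SPN-like than in other neuronal nuclei under each of 15 alternatives, and all 9 kept their sign. Between direct-like and indirect-like nuclei 5 or 6 members passed the fold under 13 alternatives. It was 5 when nuclei were thinned to 3000 UMIs, when library 5 was left out, and at second Leiden resolution 1.0, each time because Pdyn fell under 100 UMIs. Ppp1r1b and Rgs9 were the 2 members whose sign changed under some alternative (log2 -0.05 to 0.05 and -0.08 to 0.02), and Drd3 ranged from 0.04 to 1.32. The number of genes past the fold was 134, and became 231 with a minimum of 20 UMIs and 89 at second Leiden resolution 1.0, and ranged from 119 to 141 when 1 library was left out. Without thinning, 11.9% of SPN-like nuclei with Drd1 also had Drd2, against 44.7% of those without Drd1, and 57.4% of those with Drd2 also had Adora2a. These shares became 5.31%, 31.7% and 33.1% after thinning to 3000 UMIs, and 3.32%, 29.7% and 28.4% when 2 UMIs were required. With mixed and mitochondrial subclusters included, they were 13.8%, 43.0% and 55.9%. Leaving out 1 library gave 10.4 to 13.2%, 44.2 to 45.5% and 56.3 to 59.1%. Against the microglia-like reference 6 members passed the fold, 6 to 7 when 1 library was left out (7 with Penk, without library 2), 8 against cluster 18 alone and 9 against all microglia-like clusters. Both of these references, second Leiden resolution 1.0, the cluster 41 exclusion and the sets with or without mixed subclusters were chosen after seeing the data. No paired analysis was possible between genotypes because barcode suffixes were not tied to samples. For the same reason the edgeR genotype test, its replicate block and DESeq2 were not run. The missing key bars the comparison of genotypes only. Ratios between classes and their intervals were taken over all libraries together, and the direction was checked within each library. Depth limits Pdyn and Drd3, which had too few UMIs for a test under some settings, and no expression can be read from a level near that of microglia-like nuclei.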
